A study of Mus musculus with 17 samples.

Results

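The comparison described here set macrophages without SOCS3 (KO) against wild-type macrophages (WT) after 100 min of interleukin-6 (IL-6). It rests on 6 of the 17 arrays of the study, chosen by their labels: 3 of KO cells and 3 of WT cells, numbered as replicates 1 to 3 in each genotype. Both kinds of cell were bone marrow-derived macrophages of the mouse, stimulated with IL-6 at 10 ng/ml. The marrow came from irradiated hosts rebuilt with fetal liver cells, of SOCS3-/- embryos for the KO group and of SOCS3+/+ embryos for the WT group, and the macrophages were grown from cells of donor origin. The other 11 arrays hold KO cells without IL-6 (n = 3) and after 400 min (n = 3), and WT cells without IL-6 (n = 2) and after 400 min (n = 3). They share the estimate of the spread and of the differences between replicate numbers, and serve as the earlier and later reading of each gene. No label says which part of the gene was removed, what age the mice had, or whether a replicate is its own culture, mouse or donor embryo. The p-values therefore reflect the spread between these samples alone, and that spread could be technical.

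IL-6 binds its receptor together with gp130, the signalling subunit, and the kinases attached to gp130 then switch on the transcription factor STAT3. STAT3 turns on Socs3, and the SOCS3 protein docks on gp130 and shuts the kinases down, which closes a negative feedback loop. Interferon-gamma turns on genes such as Irf1 through short DNA elements called gamma-activated sites, and type I interferon turns on genes through the interferon-stimulated response element. The comparison asks which genes stand at another level in IL-6-treated macrophages when the brake is missing.

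The values below are normalized intensities, a linear brightness per probe set that can be compared between arrays for one probe set but not between genes. Differences are KO minus WT on the log2 scale, so that a difference of 1 is a doubling, with the standard error (SE) of the fit. A probe set was called when its p-value, adjusted by Benjamini-Hochberg over all 9871 tested probe sets, was under 0.05 in limma.

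The arrays labelled replicate 3 stood apart in both genotypes. Along the leading principal component (12.7% of the variance), KO replicate 3 lay at 30.49 and WT replicate 3 at 58.08, while the other 4 arrays at 100 min lay between -13.86 and -9.61. Rrm2, a subunit of the enzyme that makes DNA precursors in dividing cells, read 656, 566 and 3446 in KO replicates 1, 2 and 3, and 342, 313 and 3265 in the same WT replicates. Correlations over the tested probe sets were 0.855 to 0.917 between arrays of one genotype at 100 min and 0.829 to 0.907 between arrays of different genotype. The genotypes also differed in sex-linked signal: Eif2s3y, on the Y chromosome, read at most 84.3 on KO arrays and at least 245.1 on WT arrays, and Xist read 234.1 to 581.1 on KO arrays and 44.9 to 146.3 on WT arrays. What these genes follow and the Socs3 genotype cannot be told apart here, and X- and Y-linked genes are left out of what follows.

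Socs3 itself has a pair of probe sets on the array. The first read 66.8, 86.2 and 180 in KO cells, with replicates 1 to 3 in order, and 2552, 1809 and 432 on the WT arrays. The second read 129, 121 and 333 on the KO arrays, against 1290, 1186 and 483 on the WT arrays. On both, every KO array lay below every WT array, and the gap was narrowest for replicate 3, where KO was highest and WT lowest. The difference was -3.64 (SE 0.94) on the first, with an adjusted p of 0.378, and -2.38 (SE 0.70) on the second, with an adjusted p of 0.444. Without replicate 3 in any group the first gave -4.82, with an adjusted p of 0.0303. Whether the probe sets lie in the deleted part is not given in the sources used here. Among the 18 tested genes of the 40 nearest to Socs3 on its chromosome, 20 on each side, 0 were called. At an unadjusted p under 0.05, 1 was higher and 0 were lower, and the median difference was 0.14. Over all 6851 autosomal genes 0.102% were called higher and 0 lower, and 3.05% were higher and 3.09% lower at that unadjusted p.

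The promoter of Socs3 holds a match to an element that STAT3 binds, and it is shown because this is the gene whose loss defines the comparison. RefSeq's sequence (GRCm38.p6, chr11:117969367-117969616, minus strand) covers the 250 bases before the annotated start, with the match to a gamma-activated site in capitals. The pattern searched was TTCNNNGAA on both strands, and the match starts 154 bases before the start of transcription.

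Socs3 promoter: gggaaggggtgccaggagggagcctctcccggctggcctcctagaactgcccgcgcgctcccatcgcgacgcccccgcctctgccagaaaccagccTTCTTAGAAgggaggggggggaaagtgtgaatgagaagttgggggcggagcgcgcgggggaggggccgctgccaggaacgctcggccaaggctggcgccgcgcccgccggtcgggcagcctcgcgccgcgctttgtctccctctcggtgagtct

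Of the 9871 probe sets, 10 (0.101%) were called at 100 min, 8 of them higher in KO cells (0.081%) and 2 lower (0.0203%). The 8 higher ones each had 1 gene symbol, and all were autosomal: Ccl7, Ccl2, Ccl4, Jun, Irf1, Cdkn2d, Cd247 and Rabgap1l. Neither of the lower ones was a named autosomal gene, since 1 was X-linked and 1 had no gene name in the platform's annotation. The nameless one read 23.5, 36.2 and 6.21 in KO cells, against 396, 314 and 502 in WT cells, a difference of -3.90 (SE 0.35, adjusted p = 0.000912), and its difference was -2.57 before IL-6 (adjusted p = 0.294) and -4.09 at 400 min (adjusted p = 0.000554). In all 8 named genes every KO array lay above every WT array, a separation that 414 of all tested probe sets showed in that direction (4.19%). An unadjusted p under 0.05 was found for 620 probe sets (6.28%), of which 321 were higher in KO cells (3.25%) and 299 lower (3.03%).

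**Figure D1:**
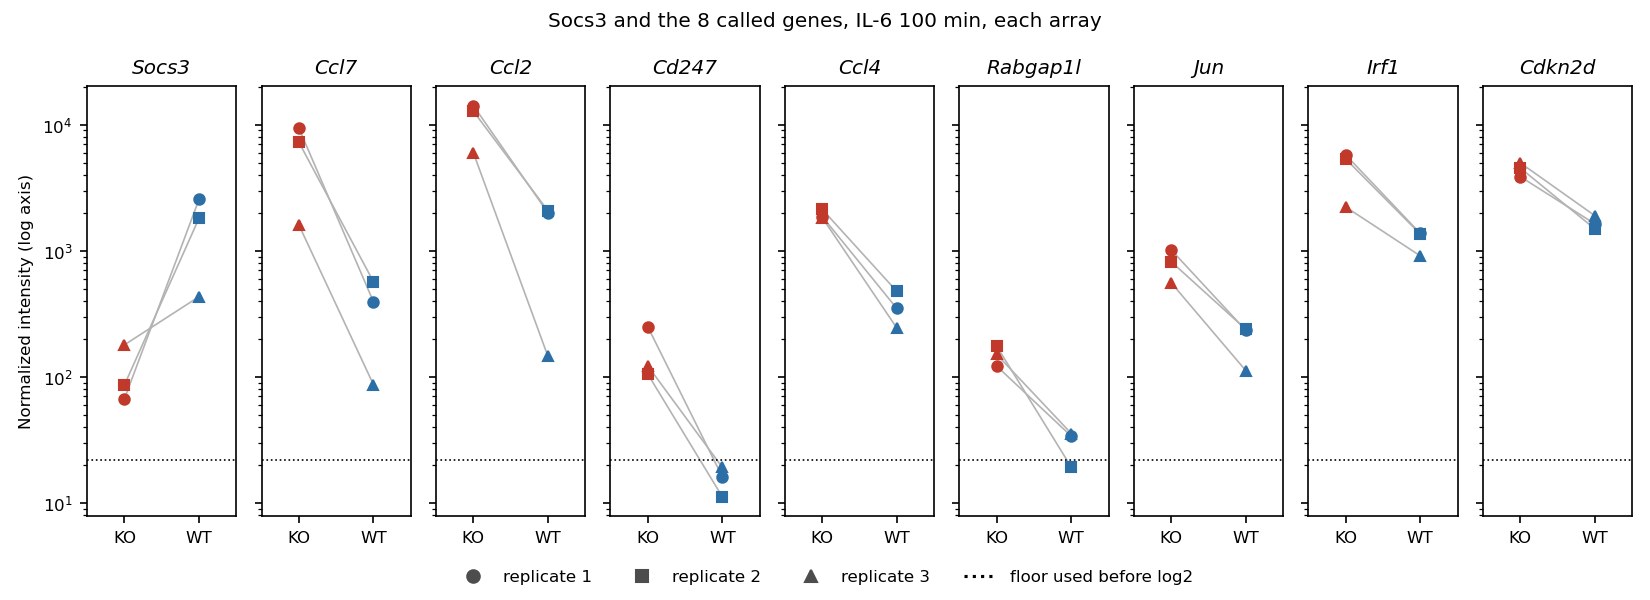
Normalized intensity (log axis) of Socs3, first probe set, and of the 8 called genes on each array at 100 min of IL-6, KO on the left and WT on the right of each panel. Symbols are replicates 1 to 3, grey lines join arrays of one number, and the dotted line is the floor of 22.01 set before log2 values were taken. Socs3 is lower on every KO array and each of the 8 genes is higher on every KO array than on any WT array.

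**Figure D2:**
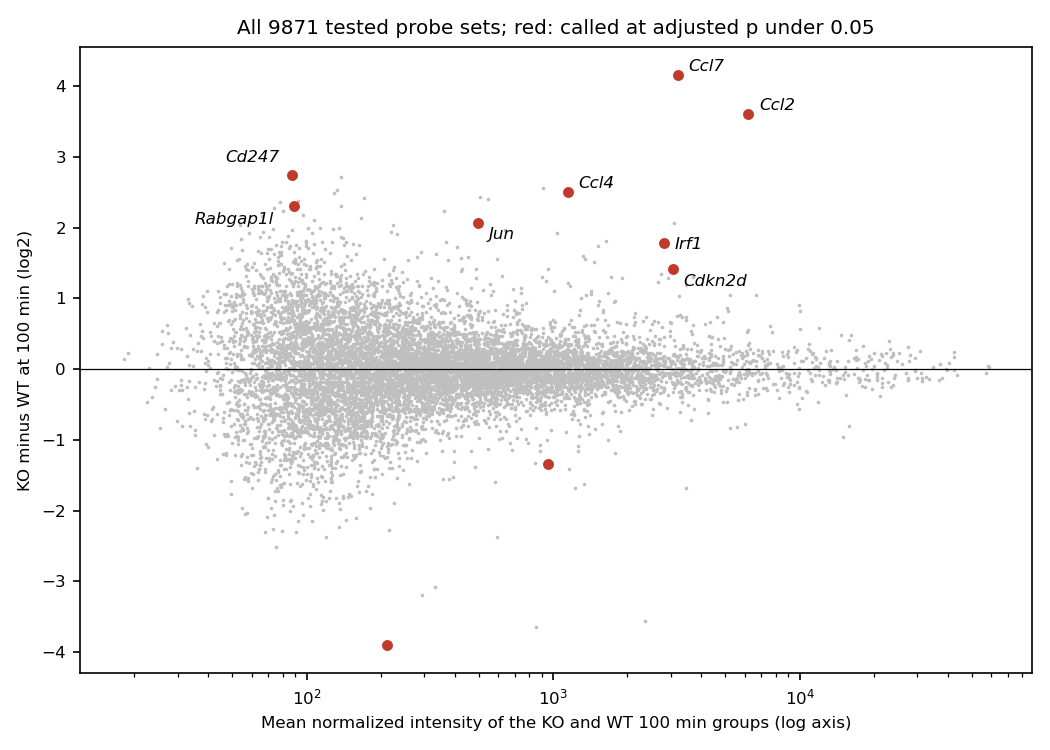
Difference at 100 min (KO minus WT, log2) of all 9871 tested probe sets against the mean intensity of the KO and WT groups (log axis). Red points are the 10 called probe sets, of which the 8 autosomal genes with a name are labelled. All 8 lie above 0, between 1.41 and 4.15.

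The strength of these calls depended on the fit. Without the replicate block 4 probe sets were called, among them Ccl4 (adjusted p = 0.0109), Rabgap1l (0.0362) and Cd247 (0.0268), and a fit of the 6 arrays alone called 0, with 590 at an unadjusted p under 0.05. Leaving out 1 array gave 2 calls without KO replicate 1, 4 without KO replicate 2, 3 without KO replicate 3, 5 without WT replicate 1 or WT replicate 2 and 14 without WT replicate 3, and leaving out replicate 3 from every group gave 21, of which 5 were among the 10. In that last fit the differences were 4.13 for Ccl7 (adjusted p = 0.0303), 2.72 for Ccl2 (0.0328), 2.29 for Ccl4 (0.039) and 2.02 for Irf1 (0.0467), while Jun (1.95, adjusted p = 0.0627), Cdkn2d (1.42, 0.086), Cd247 (2.88, 0.155) and Rabgap1l (2.42, 0.133) were not called.

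Of the 8 genes called higher in KO cells, 3 encode chemokines, the proteins that guide migrating leukocytes. Ccl7, a chemokine that draws monocytes through the receptor CCR2, read 9402, 7265 and 1604 on the KO arrays, against 394, 568 and 86.8 on the WT arrays. Replicate 3 was lowest in both genotypes, and its gap lay between those of the others (4.58, 3.68 and 4.21 for the pairs of replicates 1, 2 and 3). The difference was 4.15 (SE 0.27, adjusted p = 5.12e-05), and it was called in each of the 17 fits that left out 1 array. Without the replicate block the value was the same but its adjusted p was 0.404.

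Ccl2, or MCP-1, a ligand of CCR2, read 14177, 12793 and 6002 in KO cells, against 1998, 2079 and 146 in WT cells. The groups did not overlap, and WT replicate 3 lay far below the other WT arrays. The difference was 3.60 (SE 0.57), just inside the threshold (adjusted p = 0.0497). It was 2.77 without WT replicate 3, and it was called in 2 of the 17 fits that left out 1 array.

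Ccl4, or MIP-1beta, a chemokine that attracts T cells and monocytes, had arrays that lay close together. It read 1868, 2130 and 1832 on the KO arrays, against 349, 476 and 244 on the WT arrays. The difference was 2.50 (SE 0.31, adjusted p = 0.0137), and KO replicate 3 read close to the other KO arrays. Ccl3, or MIP-1alpha, a chemokine of the same family, read 773, 790 and 1096 in KO cells, against 293, 388 and 230 in WT cells. Its arrays were also apart, but its difference of 1.56 (SE 0.27) had an adjusted p of 0.0654.

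Of the 21 chemokine genes tested, 3 were called higher and 0 lower, and 6 had an unadjusted p under 0.05 with a higher level in KO cells and 0 with a lower one. The share over all autosomal genes, taken with 1 probe set per gene, was 0.102% called higher and 3.05% at an unadjusted p under 0.05. The median difference of the 21 was 0.23, against -0.01 over all 6851 autosomal genes. Besides Ccl7, Ccl2, Ccl4 and Ccl3, the members with a small p were Cxcl10 and Ccl12. Cxcl10, or IP-10, an interferon-induced ligand of CXCR3, read 1799, 1678 and 3539 on the KO arrays, against 486, 578 and 1015 on the WT arrays. Every KO array was above every WT array, with a difference of 1.74 (SE 0.42) and an adjusted p of 0.305. Ccl12, or MCP-5, a close relative of Ccl2, read 1164, 1096 and 421 in KO cells, against 243, 290 and 51.6 in WT cells, with a difference of 2.40 (SE 0.62) and an adjusted p of 0.374.

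Among transcription factors, Irf1 and Jun were called. Irf1, interferon regulatory factor 1, is an interferon-induced transcription factor that activates further interferon-inducible genes. It read 5767, 5352 and 2228 on the KO arrays, against 1374, 1357 and 911 on the WT arrays. KO replicate 3 was lower than the other KO arrays but still above each WT array, and the difference was 1.78 (SE 0.25, adjusted p = 0.019). Without KO replicate 3 it was 2.06 (adjusted p = 0.0134), and without WT replicate 3 it was 1.80 (adjusted p = 0.059).

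The promoter of Irf1 is shown because it was the 1 promoter among the called genes with a gamma-activated site. RefSeq (GRCm38.p6) gave promoters for 5 of the 8 called genes, Irf1 with 2 starts, Jun, Cd247, Rabgap1l and Cdkn2d. The promoters of Ccl2, Ccl7 and Ccl4 were not analysed here. The match at the first start of Irf1 (chr11:53769764-53770013, plus strand) lies 90 bases before it and is in capitals. TTCNNNGAA was found in 7.02% of the 32851 mouse promoters of the same length, and no match of GAAA, any 2 bases and GAAA again, the core of the interferon-stimulated response element, was found in the 5 genes. A match is a run of letters in the sequence and not a measured binding site.

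Irf1 promoter: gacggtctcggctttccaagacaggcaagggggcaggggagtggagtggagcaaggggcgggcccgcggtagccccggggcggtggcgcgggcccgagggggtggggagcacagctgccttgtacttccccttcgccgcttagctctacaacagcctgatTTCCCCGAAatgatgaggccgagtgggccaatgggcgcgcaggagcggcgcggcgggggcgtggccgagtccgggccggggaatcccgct

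Jun, the AP-1 subunit that is induced within minutes by many stimuli, read 1017, 820 and 558 in KO cells, against 234, 239 and 112 in WT cells. All KO arrays were above the WT arrays, with a difference of 2.07 (SE 0.24, adjusted p = 0.00893). Its partner Fos was not called. Fos read 361, 244 and 430 on the KO arrays, against 409, 420 and 1104 on the WT arrays, at -0.78 (SE 0.38, adjusted p = 0.822), and the groups overlapped. Junb, another AP-1 subunit and a target of STAT3, read 1596, 1203 and 1406 in KO cells, against 861, 1171 and 1244 in WT cells, with a difference of 0.37 (95% interval -0.34 to 1.08) and an adjusted p of 0.918.

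Of the 37 immediate early genes tested, 1 was called higher (Jun) and 0 lower. At an unadjusted p under 0.05, 8 were higher and 3 lower, and the median was 0.20. Over all 6851 autosomal genes 0.102% were called higher, and 3.05% were higher and 3.09% lower at that unadjusted p. The lower side of this list was led by Tgif1, a homeobox repressor that damps signalling by TGF-beta. Tgif1 read 773, 396 and 739 on the KO arrays, against 1361, 1395 and 2271 on the WT arrays. The groups were apart, and the difference of -1.42 (SE 0.23) missed the threshold narrowly (adjusted p = 0.0503). Gadd45g, a stress-induced growth regulator also counted as a STAT3 target, read 2868, 2894 and 1919 in KO cells, against 792, 645 and 730 in WT cells, at 1.81 (SE 0.42, adjusted p = 0.305).

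Cdkn2d, which encodes p19INK4d, an inhibitor of the cyclin-dependent kinases CDK4 and CDK6, was called higher as well. It read 3878, 4545 and 4992 on the KO arrays, against 1638, 1494 and 1901 on the WT arrays. Here the spread within a genotype was small and replicate 3 was the highest in both. The difference was 1.41 (SE 0.20, adjusted p = 0.019). Of the 43 tested genes of the cell cycle and DNA replication, 0 were called, with a median of 0.02. At an unadjusted p under 0.05, 1 was higher (Rrm2, 0.62) and 0 were lower, against 3.05% and 3.09% of all autosomal genes.

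Cd247 and Rabgap1l were read at or near the floor in WT cells. Cd247 encodes the zeta chain of the T cell receptor, a signalling subunit of T and NK cells. On the probe set that was called it read 250, 105 and 122 in KO cells, against 16.1, 11.2 and 19.1 in WT cells, which all lie under the floor of 22.01, so that the difference of 2.75 (SE 0.38, adjusted p = 0.019) is measured from the floor. The other probe set of Cd247 read 168, 142 and 79.3 on the KO arrays, against 113, 155 and 72.4 on the WT arrays, with overlapping groups and a difference of 0.19 (SE 0.45, adjusted p = 0.974). The probe sets thus disagreed. With the floor at the 20th percentile the first gave 1.69 and an adjusted p of 0.0546. The 17 marker genes of T and NK cells on the array, Cd247 by its brighter probe set among them, summed to 1416 to 1611 on KO arrays and 1739 to 1809 on WT arrays, lower in KO, and 11 of them were under the array median on all 6 arrays.

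Rabgap1l, a protein related to activators of Rab GTPases, which govern membrane traffic, read 122, 175 and 151 in KO cells, against 33.9, 19.2 and 35.6 in WT cells. The groups were well apart, at 2.31 (SE 0.30, adjusted p = 0.017). With an intensity trend in the fit, Cd247 (adjusted p = 0.0991) and Rabgap1l (adjusted p = 0.121) were no longer called.

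The genes next in rank had the same arrangement of arrays without passing the test. Ch25h, the enzyme that makes 25-hydroxycholesterol and is induced by interferon, read 3502, 3348 and 1850 on the KO arrays, against 599, 720 and 223 on the WT arrays, at 2.61 (SE 0.43, adjusted p = 0.0503). Zfand5, a zinc finger protein linked to ubiquitin, read 5023, 6440 and 4302 in KO cells, against 1830, 2234 and 2275 in WT cells, at 1.30 (SE 0.23, adjusted p = 0.0682). Ndrg1, a gene induced by stress and hypoxia, stood at 1.19 (SE 0.24, adjusted p = 0.157), and Noct, a rhythmic enzyme also known as nocturnin, at 1.52 (SE 0.31, adjusted p = 0.175). Without quantile normalization the adjusted p was 0.0385 for Ch25h and 0.0395 for Tgif1.

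On the lower side no named autosomal gene passed. Besides Tgif1, and with each gene read by its brightest probe set, the named genes of smallest p were Foxd1, Ccng2, Sgk1, Ccn5 and Gpr182. Foxd1, a forkhead transcription factor, read 11.7, 34.1 and 20.1 on the KO arrays, against 163.7, 93.8 and 117 on the WT arrays, at -2.26 (SE 0.39, adjusted p = 0.0654). Of its KO arrays, 2 lay under the floor. Ccng2, a cyclin associated with growth arrest, read 156, 216.7 and 613 in KO cells, against 877, 661 and 975 in WT cells, at -1.59 (SE 0.30, adjusted p = 0.105). Both had arrays that did not overlap between genotypes, which 491 tested probe sets showed in this direction (4.97%). Sgk1, a kinase induced by glucocorticoid, read 239, 257 and 1431 on the KO arrays, against 883, 895 and 3650 on the WT arrays. Replicate 3 was the highest in each genotype, so the groups overlapped while the 3 pairs ran one way, and the difference was -1.68 (SE 0.35, adjusted p = 0.182). Ccn5, a secreted matricellular protein, stood at -2.31 (SE 0.49, adjusted p = 0.205). It read 12.8, 14.4 and 11.1 on the KO arrays, all under the floor of 22.01, so that its difference is measured from the floor. Gpr182, a G protein-coupled receptor, stood at -1.49 (SE 0.32, adjusted p = 0.219). Stab1, a scavenger receptor of alternatively activated macrophages, read 1283, 1068 and 529 in KO cells, against 3695, 3422 and 675 in WT cells, with overlapping groups, at -1.19 (SE 0.28, adjusted p = 0.305). The dimmer probe set of Bcl2l1, which encodes a protein that blocks apoptosis, read 6.30, 23.4 and 38.1 on the KO arrays, against 101, 116 and 194 on the WT arrays, at -2.29 (SE 0.43, adjusted p = 0.108). KO replicate 1 lay under the floor on this probe set. The brighter one stood at 0.59 (SE 0.17, adjusted p = 0.426), so the probe sets disagreed in direction. So did those of Gadd45b, a stress-induced growth regulator, at -1.26 on the dimmer probe set (SE 0.21, adjusted p = 0.0503) and 0.27 on the brighter one (SE 0.38, adjusted p = 0.966).

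No part of the receptor or its signalling chain was called. Of 35 tested genes for parts of gp130 and JAK-STAT signalling, 0 were called, and the median was 0.15. At an unadjusted p under 0.05, 3 were higher and 0 lower, against 3.05% and 3.09% of all 6851 autosomal genes. Stat3 read 3149, 3476 and 2662 on the KO arrays, against 3294, 2586 and 1771 on the WT arrays, overlapping, with a difference of 0.32 (95% interval -0.08 to 0.72, adjusted p = 0.869). Il6ra, the IL-6 binding subunit, overlapped too, at 0.13 (95% interval -1.04 to 1.30). Il6st, which encodes gp130, stood at 0.33 (SE 0.23, adjusted p = 0.891) on its brighter probe set and at 0.97 (SE 0.22, adjusted p = 0.298) on the dimmer one, where every KO array was above every WT array.

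Socs1, a relative of Socs3 that is induced by interferons and inhibits JAK kinases, stood opposite to Socs3 in value. It read 574, 1169 and 771 in KO cells, against 215, 255 and 59.7 in WT cells. The groups were apart, at 2.43 (SE 0.42, adjusted p = 0.0654). Socs2 (0.50, SE 0.39) and Cish (0.02, SE 0.40), both better known as targets of STAT5, had overlapping arrays and adjusted p-values of 0.901 and 0.997. Of the 5 members of the family that were tested, 0 were called.

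Promoters were also searched for 6 uncalled genes of small p that were higher in KO cells. That of Socs1 is printed because it was the 1 among them with matches to the interferon-stimulated response element, which Irf1 can bind as well. RefSeq's 250 bases (GRCm38.p6, chr16:10785537-10785786, minus strand) hold 2 overlapping matches of that core (GAAA, any 2 bases, GAAA), 83 and 77 bases before the start, shown together in capitals. A match on either strand was present in 2.98% of the 32851 promoters.

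Socs1 promoter: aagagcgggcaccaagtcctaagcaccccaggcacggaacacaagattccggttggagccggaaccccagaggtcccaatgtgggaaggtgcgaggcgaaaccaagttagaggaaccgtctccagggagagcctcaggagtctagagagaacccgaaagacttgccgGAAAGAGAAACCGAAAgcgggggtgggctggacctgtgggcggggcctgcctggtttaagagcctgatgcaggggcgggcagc

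Interferon-inducible genes, as lists, had medians above that of all genes, with 1 member called. Of 37 tested genes known as targets of interferon-gamma, 1 was called higher (Irf1) and 0 lower, 7 were higher and 0 lower at an unadjusted p under 0.05, and the median was 0.51. Of 37 tested genes known to be stimulated by type I interferon, 0 were called, 8 were higher and 0 lower at an unadjusted p under 0.05, and the median was 0.42. Over all 6851 autosomal genes the shares were 3.05% higher and 3.09% lower, with a median of -0.01. Before IL-6 both lists had a median of -0.17, read on other arrays. Since WT cells have no unstimulated replicate 3, that value also draws on the replicate effect of the arrays at 100 min. The lists share members, Cxcl10 among them.

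Gbp2, a guanylate-binding protein that helps destroy the vacuoles of intracellular microbes, read 4992, 4688 and 1634 on the KO arrays, against 2162, 1770 and 775 on the WT arrays. KO replicate 3 lay below the first pair of WT arrays, and the difference was 1.23 (SE 0.37, adjusted p = 0.464). Plscr1, a phospholipid scramblase with antiviral activity, read 2082, 1909 and 929 in KO cells, against 786, 574 and 648 in WT cells, at 1.22 (SE 0.32, adjusted p = 0.378). Usp18, which removes the ubiquitin-like protein ISG15, was at 0.95 (SE 0.27, adjusted p = 0.426). Ifi202b, a member of the family of DNA sensors, had 2.56 (SE 0.65, adjusted p = 0.357) at 100 min, but it had 2.37 before IL-6 also.

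Targets of STAT3 also had a median above that of all genes, with no member called. Of 40 tested, 0 were called, and 12 were higher and 0 lower at an unadjusted p under 0.05. Over all 6851 autosomal genes 3.05% were higher and 3.09% lower at that p. The median of the list was 0.34 at 100 min against 0.12 before IL-6. Il4ra, the alpha chain of the IL-4 receptor, read 15777, 15629 and 7421 on the KO arrays, against 8581, 7917 and 4122 on the WT arrays, at 0.90 (SE 0.25, adjusted p = 0.426). The 3 pairs gave 0.88, 0.98 and 0.85, although the groups overlapped, with replicate 3 low in both. The dim second probe set of Il4ra ran the other way, at -1.20 (SE 0.76, adjusted p = 0.891). Myc, the proto-oncogene, read 117, 141 and 95.2 in KO cells, against 16.95, 71.6 and 32.3 in WT cells, at 1.65 (SE 0.45, adjusted p = 0.426). Pim1, a survival kinase, stood at 0.73 (SE 0.21, adjusted p = 0.437), and Bcl3, a regulator of NF-kappaB, at 0.68 (SE 0.36, adjusted p = 0.849). Selp, which encodes P-selectin, stood at 1.54 (SE 0.49) and Fcgr2b, the inhibitory IgG receptor, at 1.29 (SE 0.40), with adjusted p-values of 0.489 and 0.473.

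The list of NF-kappaB inflammatory genes leaves out Ccl7, Ccl2 and Ccl4, which are counted above as chemokines. Of its 29 tested genes, 0 were called, and the median was 0.10. At an unadjusted p under 0.05, 4 were higher and 0 lower, against 3.05% and 3.09% of all 6851 autosomal genes. Tnf read 102, 131 and 67.4 on the KO arrays, against 65.7, 172 and 125 on the WT arrays, at -0.21 (95% interval -1.39 to 0.96). Il1b stood at -0.35 (95% interval -1.57 to 0.88). Il10, the anti-inflammatory cytokine that itself signals through STAT3, read 1119, 1023 and 111 in KO cells, against 269, 308 and 106 in WT cells, so that replicates 1 and 2 were well above WT and replicate 3 was not. Its difference was 1.29 (SE 0.59, adjusted p = 0.792).

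The remaining pathway lists had 0 calls each. Genes of MHC and antigen presentation had a median of 0.12 over 25 tested and 0 at an unadjusted p under 0.05. Acute phase and complement genes had a median of 0.23 over 17, with 2 higher and 1 lower at an unadjusted p under 0.05. The shares over all autosomal genes were 3.05% and 3.09%. Alternative activation had a median of 0.02 over 14, apoptosis and survival -0.01 over 27, lysosome and phagocytosis -0.08 over 32, and heat shock and stress 0.03 over 27. Arg1, arginase 1 of alternatively activated macrophages, read 164.3, 207 and 103 on the KO arrays, against 66.3, 45.3 and 127 on the WT arrays, at 1.07 (SE 0.88, adjusted p = 0.909).

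**Figure D3:**
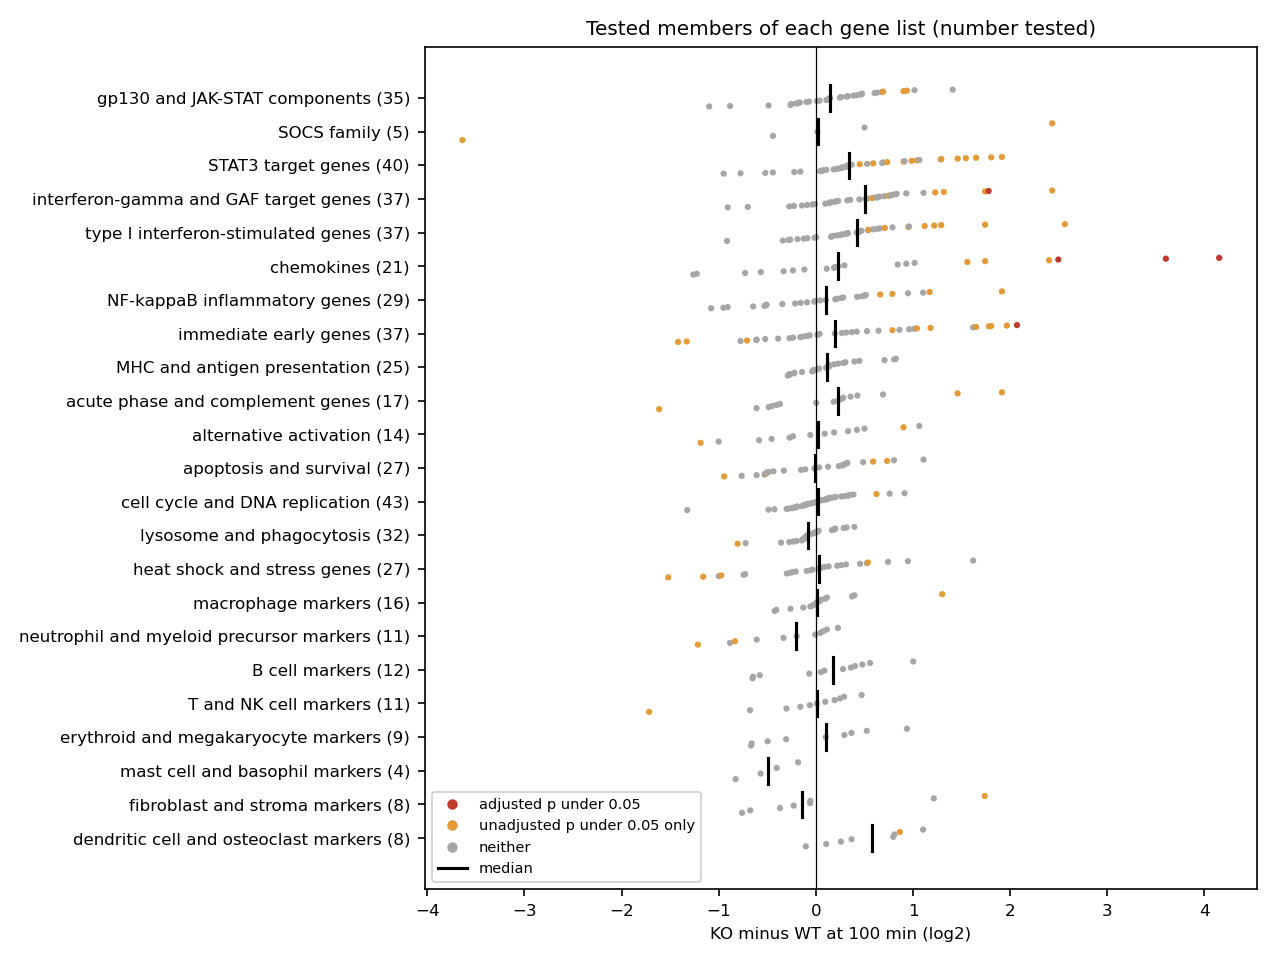
Difference at 100 min (KO minus WT, log2) of each tested member of the 15 pathway and 8 marker lists, 1 point per gene, with the list's median as a black bar. Red points passed at an adjusted p under 0.05 and orange points only at an unadjusted p under 0.05. Medians lie between -0.49 and 0.58, and the red points are in the chemokine, interferon-gamma and immediate early lists.

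Macrophage markers were bright in both genotypes as a sum, while 2 of the 17 on the array were under the array median on all 6 arrays. The summed intensity of 17 macrophage markers was 159125 to 182923 on KO arrays and 158521 to 188649 on WT arrays, with a median difference of 0.01 over 16 tested, of which 0 were called and 1 was higher and 0 lower at an unadjusted p under 0.05. That 1 was Msr1, a scavenger receptor, which read 2444, 1936 and 2649 in KO cells, against 681, 615 and 2000 in WT cells, at 1.30 (SE 0.57, adjusted p = 0.785), and its difference before IL-6 was 1.96 (SE 0.65, adjusted p = 0.68). Csf1r, the receptor for the growth factor of macrophages, read 20773, 21886 and 15195 in KO cells, against 28540, 27389 and 15195 in WT cells, at -0.26 (SE 0.20). Markers of other cells summed to 3491 to 5245 on KO arrays and 3216 to 6624 on WT arrays for 14 B cell genes, and 1394 to 2036 on KO arrays and 1757 to 2513 on WT arrays for 15 genes of neutrophils and myeloid precursors. On all 6 arrays 5 of the B cell genes and 9 of the neutrophil and precursor genes were under the array median. The 16 genes of fibroblasts and stroma summed to 2330 to 2538 on KO arrays and 2549 to 2938 on WT arrays. For 10 erythroid and megakaryocyte genes the sums were 1181 to 2084 on KO arrays and 1324 to 1553 on WT arrays. For 11 mast cell and basophil genes they were 1148 to 1910 and 1346 to 2101. The 12 genes of dendritic cells and osteoclasts summed to 2623 to 3142 on KO arrays and 1782 to 2214 on WT arrays. Their median was 0.58 over 8 tested, with 0 called and 1 higher at an unadjusted p under 0.05, against 3.05% of all autosomal genes. The part of these markers in the differences above was not tested. In RNA from a whole culture, fewer cells of a type and less RNA per cell cannot be told apart.

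Of the 8 called genes, 4 (Ccl7, Ccl2, Ccl4 and Irf1) lie on chromosome 11, which also carries Socs3. Over that chromosome as a whole, 782 named probe sets were tested, with 4 called higher and 0 lower. At an unadjusted p under 0.05, 31 were higher and 30 lower (3.96% and 3.84%), with a median of 0.00. On the other autosomes 7671 were tested, also with 4 called higher and 0 lower. There 239 were higher and 223 lower at that unadjusted p (3.12% and 2.91%), with a median of -0.01. The called share was thus larger on chromosome 11, and the reason was not tested.

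The same genes were read before IL-6 and at 400 min on other arrays. Without IL-6, KO against WT gave 0 calls in limma, with 614 at an unadjusted p under 0.05 (6.22%). Without WT unstimulated replicate 1, which leaves 1 WT array assumed to vary like the other groups, 16 were called, 15 of them higher in KO cells. At 400 min 57 were called (0.577%), 45 higher in KO cells (0.456%) and 12 lower (0.122%). Before IL-6 the difference was 0.40 for Ccl4, -0.56 for Jun, -0.28 for Irf1 and 0.35 for Cdkn2d, with SEs of 0.22 to 0.36. It was already 1.84 (SE 0.30, adjusted p = 0.294) for Ccl7. That gene read 100, 116 and 9.13 on the KO arrays, against 30.2 and 32.9 on the WT arrays. For Ccl2 it was 1.62 (SE 0.65, adjusted p = 0.784), with readings of 445, 352 and 368 in KO cells, against 236 and 153 in WT cells. WT cells have no unstimulated replicate 3, so the differences before IL-6 also draw on the replicate effect of the arrays at 100 and 400 min. Rabgap1l stood at 1.77 (SE 0.34, adjusted p = 0.295) before IL-6. Cd247 stood the other way before IL-6 on its called probe set, at -1.23 (SE 0.44, adjusted p = 0.703).

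Whether the difference at 100 min exceeded that before IL-6 was tested as an interaction, which called 0 probe sets, with 423 at an unadjusted p under 0.05 (4.29%). For Jun the interaction was 2.63 (SE 0.37, adjusted p = 0.118), for Cd247 3.97 (SE 0.58, adjusted p = 0.118), for Ccl7 2.31 (SE 0.40, adjusted p = 0.382) and for Irf1 2.06 (SE 0.37, adjusted p = 0.392). These values are as large as the differences at 100 min for Jun and Irf1, but none passed with 2 unstimulated WT arrays in the contrast.

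At 400 min 6 of the 8 genes were still higher in KO cells and called. The difference was 6.48 (SE 0.27, adjusted p = 3.85e-07) for Ccl7, 4.60 for Ccl2 (adjusted p = 0.005), 2.15 for Irf1 (0.00242), 1.98 for Ccl4 (0.0159), 1.52 for Jun (0.0159) and 1.31 for Cdkn2d (0.0131). Ccl7 read 14575, 13737 and 2930 in KO cells, against 143, 262 and 7.24 in WT cells at that time. Its WT level thus lay below that of WT cells at 100 min while its KO level lay above that of KO cells at 100 min. The other 2, Cd247 (-1.69, adjusted p = 0.0888) and Rabgap1l (-1.76, adjusted p = 0.0232), were lower in KO cells at 400 min. The array labelled KO 400 min replicate 3 read 903 for Socs3 on the first probe set, beside 48.6 and 78.5 on the other KO arrays. The WT arrays of that time read 2400, 2036 and 2117. Directions at 400 min thus rest in part on an array that goes against its label for Socs3. For each of the 6 genes called higher, this array still lay above every WT array at 400 min. Without it 101 probe sets were called at 400 min, 59 higher in KO cells and 42 lower. Without another array of that time the count was 28 (KO replicate 1), 17 (KO replicate 2), 33 (WT replicate 1), 16 (WT replicate 2) or 35 (WT replicate 3).

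**Figure D4:**
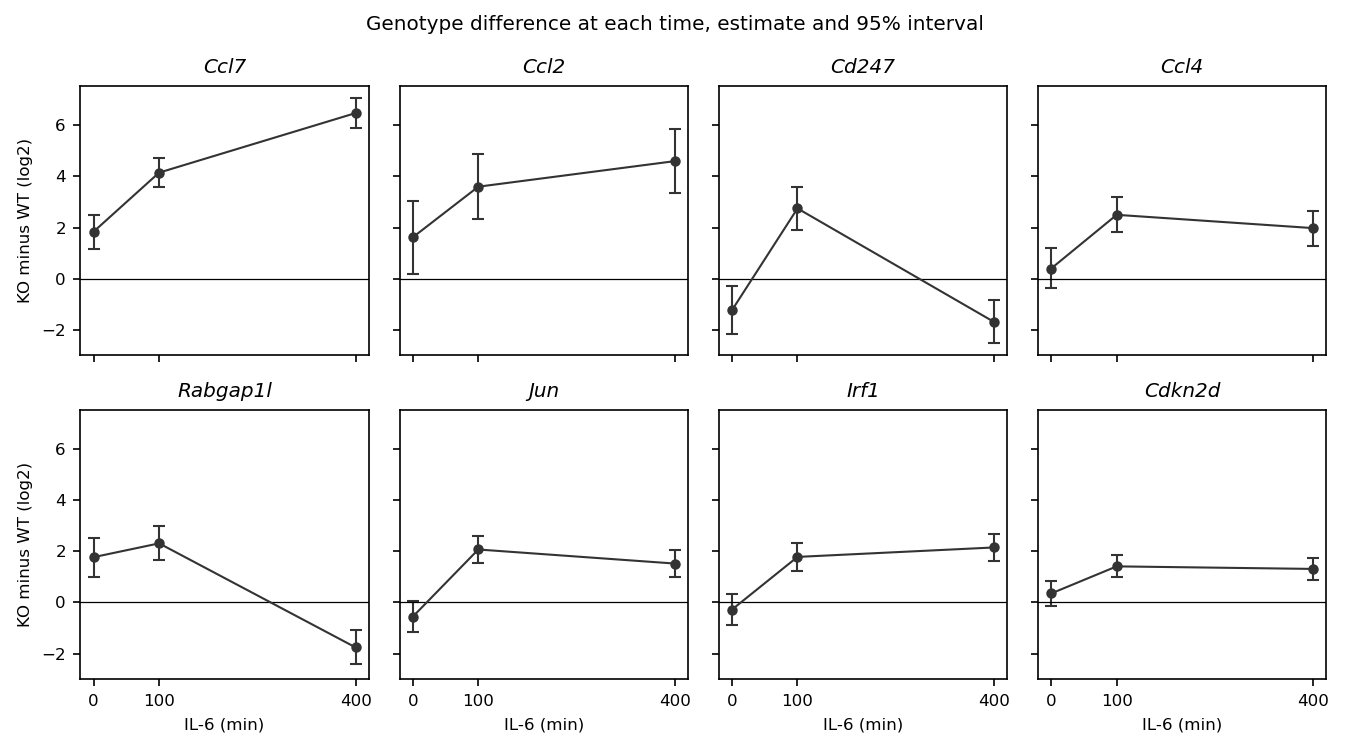
Difference of KO minus WT (log2) of the 8 called genes before IL-6 and after 100 and 400 min, as the estimate of the fit with its 95% interval. For 6 genes the points at 100 and 400 min are both above 0, while Cd247 and Rabgap1l are above 0 at 100 min and below 0 at 400 min.

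Some interferon-inducible genes that were not called at 100 min were called higher in KO cells at 400 min. Gbp3, another guanylate-binding protein, read 3242, 3230 and 1291 on the KO arrays, against 2550, 1776 and 762 on the WT arrays after 100 min, at 0.66 (SE 0.42, adjusted p = 0.891). At 400 min it read 3408, 4220 and 2550 in KO cells, against 410, 218 and 419 in WT cells, at 3.31 (adjusted p = 0.00615). Iigp1, an immunity-related GTPase, stood at 0.79 (SE 0.54, adjusted p = 0.891) at 100 min and at 4.98 (adjusted p = 0.00167) at 400 min. Gbp2 stood at 3.50 (adjusted p = 0.00167) and Tap1, the peptide transporter of MHC class I, at 1.57 (adjusted p = 0.0084) at 400 min, where Tap1 had 0.45 (SE 0.21, adjusted p = 0.806) at 100 min. The test of the change between 100 and 400 min did not pass for any of these 4, with adjusted p-values of 0.152 for Iigp1, 0.467 for Gbp2 and for Gbp3, and 0.708 for Tap1.

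Irf1 and Socs1 had gaps of close size at both times. Irf1 read 4667, 4244 and 3788 on the KO arrays, against 1108, 1116 and 689 on the WT arrays after 400 min, with differences of 1.78 at 100 min and 2.15 at 400 min. Socs1 read 828, 849 and 853 in KO cells, against 140, 197 and 101 in WT cells after 400 min, at 2.58 (adjusted p = 0.0178) beside 2.43 at 100 min. Cxcl10 read 1113, 1155 and 1239 on the KO arrays, against 243, 261 and 195 on the WT arrays after 400 min, lower in both genotypes than at 100 min, at 2.34 (adjusted p = 0.0287).

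**Figure D5:**
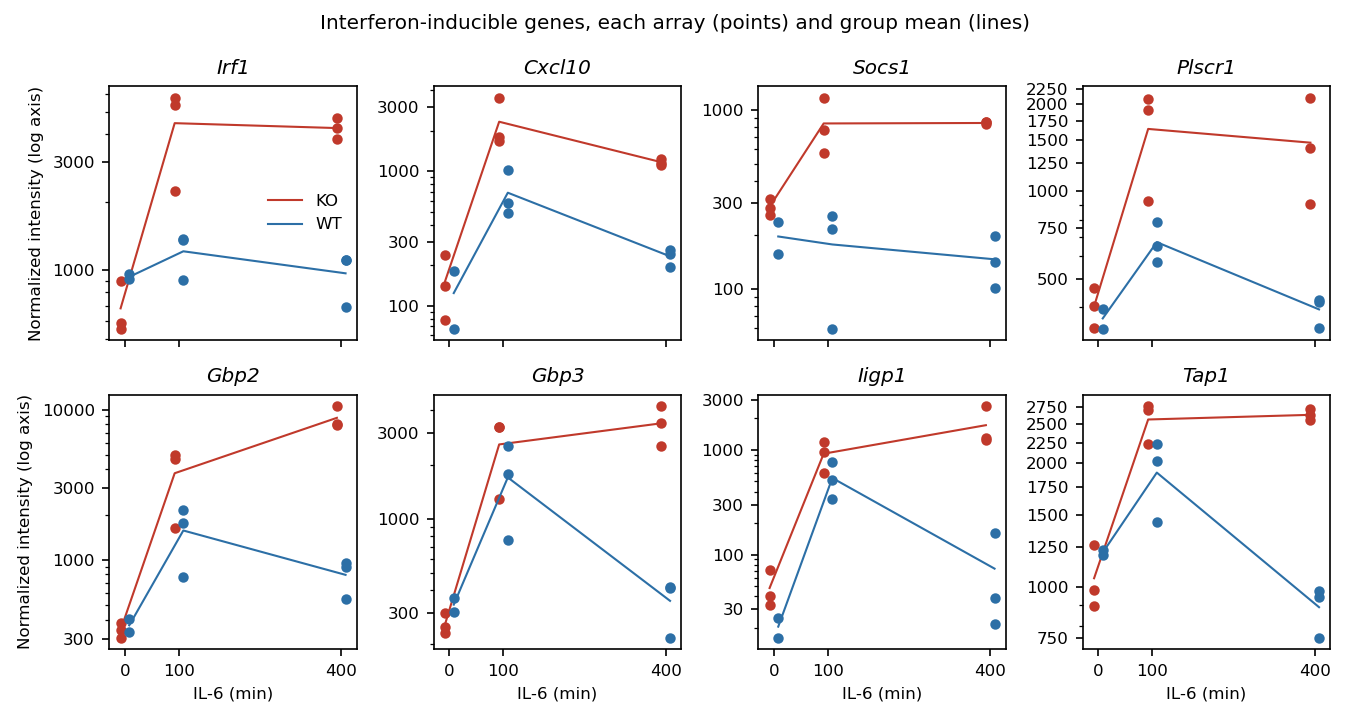
Normalized intensity (log axis, its own range in each panel) of 8 interferon-inducible genes before IL-6 and after 100 and 400 min, KO in red and WT in blue. Points are arrays, drawn 8 min to either side of the time for legibility, and lines join group means. In Irf1, Cxcl10, Socs1 and Plscr1 the KO arrays are above the WT arrays at both 100 and 400 min, and in Gbp2, Gbp3, Iigp1 and Tap1 the arrays overlap or nearly meet at 100 min and are apart at 400 min.

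Genes that responded to IL-6 at 400 min were also looked up at 100 min. In KO macrophages 147 autosomal genes were called higher at 400 min against unstimulated cells. This choice used the 6 arrays at 100 min only through the shared block and spread of the fit. Of the 147, 6 were called higher in KO cells at 100 min and 0 lower, against 7 and 0 of all 6851. At an unadjusted p under 0.05, 43 were higher and 2 lower, against 209 and 212 of all 6851, and the median was 0.45. The 109 genes called lower at 400 min in KO macrophages had a median of -0.10 at 100 min, with 1 called higher, and 2 higher and 7 lower at an unadjusted p under 0.05. In WT macrophages 3 genes were called higher at 400 min, of which 1 was called higher in KO cells at 100 min, and 0 were called lower. The KO lists were thus chosen through KO cells, 1 side of the comparison at 100 min. Their counts are given as values and not as a test of the genotype difference.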

How the data were processed

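The deposited table holds linear intensities of 12488 probe sets on 17 arrays, between 0.3 and 91970.4. From the values, the authors had scaled each array to a trimmed mean of about 500.3 to 500.4; the software, background correction and detection calls were not given in the sources used here. Gene names come from the platform's annotation, 1 symbol for 10855 probe sets, several for 396 and none for 1237.

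Since array medians differed by 0.4 on the log2 scale, intensities were quantile normalized, given a lower limit of 22.01 (the 10th percentile of all values) and log2 transformed. Levels in the text precede this floor, and the size of a difference with values under it depends on the floor. The 66 control probe sets were left out, and 9871 probe sets were tested (8730 with 1 symbol), those that exceeded the 40th percentile of 2 or more arrays. A gene is given by its probe set of highest mean.

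limma 3.58.1 in R 4.3.3 fitted 1 mean per group and the replicate number as a block over all 17 arrays (eBayes, prior df 2.3, residual df 9). Tests were two-sided and adjusted by Benjamini-Hochberg within each of 5 comparisons; scripts were tested on simulated data. The alternatives changed the normalization, floor, filter, block and arrays. Named genes are the 8 called ones, further genes of smallest p with a log2 difference of at least 1 and the same sign in all 3 same-numbered pairs (up to 15 per direction), 29 tested of 30 key genes, and up to 4 members of smallest p in each of 23 lists; values of the set of genes responding at 400 min were added after these data were seen. The members and lists were chosen with earlier results of these data known. The number of arrays limits the precision. Promoters are from RefSeq, GRCm38.p6.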

Additional observations from a re-analysis of the deposited data

Results flagged for a closer look

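The genotype difference changed between 100 and 400 min for Cd247 and Rabgap1l, the 2 probe sets of 9871 (0.0203%) that the interaction test in limma called. For Cd247 the KO minus WT difference was lower at 400 min than at 100 min by -4.43 on the log2 scale (SE 0.54, adjusted p = 0.0213). It read 250, 105 and 122 on KO arrays and 16.1, 11.2 and 19.1 on WT arrays at 100 min, against 34.1, 71.9 and 29.3 on KO arrays and 127, 145 and 130 on WT arrays at 400 min. For Rabgap1l the change was -4.06 (SE 0.43, adjusted p = 0.0097), with 122, 175 and 151 on KO arrays and 33.9, 19.2 and 35.6 on WT arrays at 100 min, against 24.1, 66.1 and 44.5 on KO arrays and 121, 165 and 136 on WT arrays at 400 min. In both genes the order of the groups was opposite at the 2 times, with no overlap at either. The other probe set of Cd247 changed by 0.97 (adjusted p = 0.986). Without KO 100 min replicate 3, or without KO 400 min replicate 3, 0 probe sets were called in this test. With an intensity trend neither gene was called, and 2 other probe sets were, both in the opposite direction. The stricter filter on dim probe sets, which leaves out both of these probe sets, gave 0 calls.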

How the results depend on the processing

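All alternatives were planned. The count at 100 min (10 called, 8 higher and 2 lower) became 16 (11 and 5) without quantile normalization, 17 with the floor at the 20th percentile, 18 on log2 of the value plus 50, 19 with the stricter filter, 16 with replicate 3 as a batch block and 25 with an intensity trend. The same-numbered arrays deviated together with correlations of 0.054, 0.078 and 0.199 at 100 min, and KO replicate 2 correlated better with WT replicate 1 (0.113), so the numbers may not pair the samples; without the replicate block 4 were called. Fitted on the 6 arrays alone, 0 were called with the block (590 at an unadjusted p under 0.05) and 0 without it (466). Leaving out an array or a replicate number gave 0 to 21.

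The unstimulated comparison (0 called) gave 3 with the floor at the 20th percentile, 1 without a filter and 0 to 16 with arrays left out. At 400 min (57) there were 86 with that floor, 123 with the stricter filter, 36 without the replicate block, 0 and 2 on the groups alone with and without the block, 182 with the trend and 1 to 109 with arrays left out. The interaction of 100 min with unstimulated (0) gave 2 on log2 of the value plus 50, 1 with the stricter filter, 1 with the trend and 0 to 5 with arrays left out. That of 400 with 100 min (2) gave 1 without quantile normalization, 1 with the floor, 1 on log2 of the value plus 50, 0 with the stricter filter, 1 on the groups alone with the block (another probe set, higher), 2 with the trend (2 others, both higher) and 0 to 5 with arrays left out. The causes were not tested.

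Over 121 named genes and 30 settings, 3446 of 3596 values kept their call and direction, 83 lost the call, 44 gained it, 23 uncalled values moved and 0 called values reversed. Most of these genes were not called in the main fit, so most kept values are genes that stayed uncalled. The 83 lost calls all fell on the 8 called genes. Over at most 30 settings each, they were 21 for Ccl2, 12 for Cdkn2d, 11 for Cd247, 10 for Irf1, 9 for Rabgap1l, 8 for Jun and for Ccl4, and 4 for Ccl7. The calls kept in the 17 fits without 1 array were 17 for Ccl7, 15 for Jun, 14 for Rabgap1l, 13 for Ccl4 and for Cd247, 12 for Irf1, 11 for Cdkn2d and 2 for Ccl2. No detection calls were used, so signal over background is not known for dim probe sets.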
